A study of Mus musculus with 20 samples.

Results

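Lymphocytes are a minor part of the liver, which consists mostly of hepatocytes, and their RNA is a small part of the RNA of whole liver tissue. Genes that mark lymphocytes were followed in individual mouse livers: Cd3d, Cd3e, Cd4, Cd8a, Cd79a, Cd79b, Ms4a1, Nkg7 and Ptprc. They were chosen by name, with earlier results of these data known, and their rows are 9 of the 25444 gene loci in the deposited tables. The livers came from 20 mice, 5 females and 5 males of each of the inbred strains C57BL/6N (B6) and C3H/HeN (C3), all untreated and 20 weeks old. The labels name no transgene or other engineered allele in any mouse. The mice were housed singly, all were changed to a second diet in the weeks before collection, and all were killed with CO2 and bled from the caudal vena cava before the left lateral lobe was taken. Males and females lived in separate rooms, so that sex and room cannot be told apart.

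T cells recognise antigen with a T cell receptor that signals through the CD3 chains, 2 of which are encoded by Cd3d and Cd3e. Cd4 and Cd8a encode co-receptors that bind class II and class I MHC molecules, and they divide helper from cytotoxic T cells. B cells recognise antigen with membrane immunoglobulin that signals through the chains encoded by Cd79a and Cd79b, and mature B cells carry CD20, the product of Ms4a1. Nkg7 encodes a protein of the cytotoxic granules of NK cells and cytotoxic T cells. Ptprc encodes CD45, a tyrosine phosphatase on the surface of all nucleated blood cells, so that macrophages and other myeloid cells of the liver carry it too. The liver is known for its many NK and NKT cells and for Kupffer cells, its resident macrophages. CD4 is also found outside the T cell lineage, on some macrophages and dendritic cells.

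In the mm9 assembly, Cd3d (gene 12500, chr9:44789869-44795135, plus strand) and Cd3e (gene 12501, chr9:44806826-44817673, minus strand) lie beside each other. Cd4 (gene 12504) lies at chr6:124814711-124838227 on the minus strand and Cd8a (gene 12525) at chr6:71323421-71329165 on the plus strand. The B cell genes are Cd79a (gene 12518, chr7:25682530-25687216, plus strand), Cd79b (gene 15985, chr11:106172655-106175876, minus strand) and Ms4a1 (gene 12482, chr19:11325093-11340641, minus strand). Nkg7 (gene 72310) lies at chr7:50692508-50693616 on the plus strand, and Ptprc (gene 19264) at chr1:139959436-140071882 on the minus strand. None of the 9 overlaps another gene on its own strand. Ms4a1 is overlapped on the opposite strand by 4930526L06Rik, which had 1 count over all livers.

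The RefSeq promoter table for GRCm38.p6 matched 6 of the 9 genes, namely Cd3d, Cd3e, Cd8a, Cd79a, Nkg7 and Ptprc. The promoters of Cd3e, Nkg7 and Cd79a are shown because these genes belong to the 2 pairs that varied together between livers, as described below. Each is written 5′ to 3′ on the strand of its gene, and capitals mark AGGAAG, a core sequence that ETS factors bind, or its reverse complement CTTCCT. The windows are chr9:45009562-45009861 on the minus strand for Cd3e, chr7:43436888-43437187 on the plus strand for Nkg7 and chr7:24897247-24897546 on the plus strand for Cd79a.
Cd3e: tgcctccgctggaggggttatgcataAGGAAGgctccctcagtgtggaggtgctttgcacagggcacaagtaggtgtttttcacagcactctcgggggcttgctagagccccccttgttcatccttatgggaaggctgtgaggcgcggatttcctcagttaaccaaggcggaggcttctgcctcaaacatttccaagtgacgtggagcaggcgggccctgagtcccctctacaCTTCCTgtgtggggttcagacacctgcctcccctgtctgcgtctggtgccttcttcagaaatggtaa
Nkg7: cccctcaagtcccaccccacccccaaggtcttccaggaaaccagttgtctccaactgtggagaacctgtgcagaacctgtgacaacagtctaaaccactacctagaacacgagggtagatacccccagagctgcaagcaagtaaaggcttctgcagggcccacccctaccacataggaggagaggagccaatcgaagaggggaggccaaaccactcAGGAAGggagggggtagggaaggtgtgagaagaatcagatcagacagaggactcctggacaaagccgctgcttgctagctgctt
Cd79a: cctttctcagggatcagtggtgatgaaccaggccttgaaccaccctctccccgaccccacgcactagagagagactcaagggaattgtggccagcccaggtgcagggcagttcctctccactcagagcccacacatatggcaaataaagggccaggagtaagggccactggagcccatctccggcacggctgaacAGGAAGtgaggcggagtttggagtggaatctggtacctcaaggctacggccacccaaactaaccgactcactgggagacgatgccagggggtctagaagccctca
These letters, searched on both strands, occurred 2 times in the Cd3e window and 1 time each in those of Nkg7 and Cd79a. They also occurred 2 times in the window of Cd3d and were not found in that of Cd8a, and the 2 windows of Ptprc held 3 and 1 matches. Of all 32851 promoters of the table, 35.4% held them. TGTGGT, a core that Runx factors bind, was found 1 time, in the Nkg7 window, and in 16.8% of all promoters. The octamer ATTTGCAT (1.7% of all promoters) and CCCNNGGG, a core of the EBF site (13.7%), were in none of the matched windows.

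Total counts per liver were between 27370921 and 46835745. At this depth 3 counts, about the fewest that show a gene, correspond to 0.0641 to 0.110 CPM, which is a count scaled to the total of its liver, and this limit covers counting error only. Apart from Ptprc, the genes had between 0 and 245 counts in a liver, and Cd3d, Cd3e and Cd8a had at most 39. Per unit of length, on the TPM scale with the gene lengths that the authors used, Ptprc was the highest, with a median of 5.53 TPM over the 20 livers and a range of 2.85 to 11.5. Cd79b (median 1.41 TPM, range 0.456 to 3.57), Cd4 (1.27, range 0.325 to 4.46) and Nkg7 (0.806, range 0.212 to 2.30) came next. Below them were Cd79a (0.611 TPM, range 0.0564 to 1.09), Ms4a1 (0.398, range 0.0364 to 1.13), Cd3e (0.267, range 0.0401 to 0.597), Cd3d (0.217, range 0.0462 to 0.871) and Cd8a (0.0932, range 0 to 0.747). The ranges of all neighbours in this order overlapped. In bulk tissue, fewer cells of a type and less RNA per cell cannot be told apart.

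**Figure D1:**
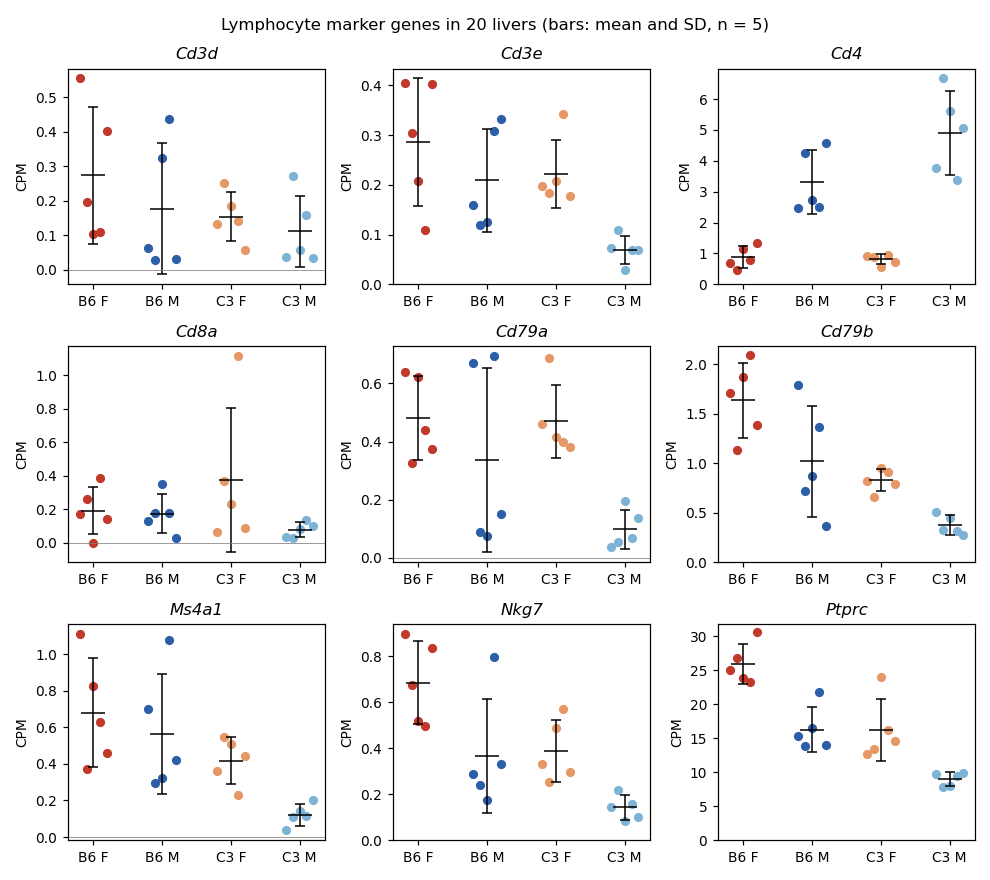
CPM of the 9 genes (y axis, own scale for each gene) in each liver of the 4 groups (x axis); each point is 1 liver, and bars give the mean and SD of 5 livers. Cd4 was higher in males, where all livers had at least 2.46 CPM and all female livers at most 1.33, whereas Ptprc was highest in B6 females (23.3 to 30.6 CPM) and lowest in C3 males (7.83 to 9.92 CPM).

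Females and males were compared within each strain to ask which of the genes were sex-biased. A quasi-likelihood model in edgeR gave the tests, and a call needed an adjusted P under 0.001 together with a log2 fold change beyond 0.5 in either direction. Of the 9 genes, 7 passed the filter on low counts. Cd4 was called in both strains and was lower in females than in males. Ptprc was higher in females of both strains and was called in C3 only, whereas the B cell genes, Cd3e and Nkg7 were higher in C3 females than in C3 males without reaching the call.

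Cd4 stood at 0.683, 0.479, 1.14, 0.797 and 1.33 CPM in B6 females 1 to 5 and at 2.46, 4.27, 2.74, 2.52 and 4.59 CPM in B6 males 1 to 5. C3 females had 0.924, 0.892, 0.556, 0.943 and 0.736 CPM of Cd4, and C3 males 3.76, 6.68, 5.62, 3.38 and 5.08 CPM. Every male liver was thus above every female liver. B6 females had a mean of 0.885 ± 0.344 CPM (SD, n = 5), B6 males one of 3.31 ± 1.03, C3 females one of 0.810 ± 0.164 and C3 males one of 4.91 ± 1.35. Between the sexes the log2 fold change was -2.00 in B6 (SE 0.19, adjusted P = 2.5e-07), a 3.99-fold lower level in females, and -2.56 in C3 (SE 0.19, adjusted P = 1.2e-08), a 5.92-fold lower level. The difference had the same sign in each of the 3 sequencing pools, with differences in mean log2 CPM of -2.12, -1.11 and -2.16 in B6 and -2.84, -2.25 and -2.28 in C3 from 1 or 2 livers of each sex per pool. Both calls held without any 1 liver, with log2 fold changes between -2.15 and -1.89 in B6 and between -2.70 and -2.44 in C3.

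Cd3e did not share the direction of Cd4, and for Cd3d and Cd8a no direction was shown. Cd3e had 19, 14, 6, 4 and 14 counts in B6 females and 5, 4, 5, 12 and 11 in B6 males. In C3 it had 6, 8, 9, 12 and 6 counts in females and 2, 4, 1, 3 and 2 in males. The sexes overlapped in B6 and did not overlap in C3, where the CPM of Cd3e was at least 0.177 in females and at most 0.109 in males. Its log2 fold change was 0.40 in B6 (SE 0.37, adjusted P = 0.42) and 1.51 in C3 (SE 0.48, adjusted P = 0.019; up to 0.061 without C3 female 4 or C3 male 3 or 4). Cd3d and Cd8a had too few counts for the filter and were compared by two-sided exact permutation tests of their mean CPM, whose smallest possible p with 5 against 5 livers is 0.00794. Cd3d had a mean of 0.274 ± 0.199 CPM in B6 females and 0.177 ± 0.190 in B6 males (exact permutation p = 0.46), and 0.154 ± 0.071 in C3 females against 0.112 ± 0.104 in C3 males (exact permutation p = 0.476). For Cd8a the means were 0.192 ± 0.143 and 0.173 ± 0.115 CPM in B6 females and males (exact permutation p = 0.81), and 0.373 ± 0.432 and 0.0773 ± 0.0456 in C3 females and males (exact permutation p = 0.0873). None of the 8 tests of these 2 genes, the strain comparisons included, had a Benjamini-Hochberg adjusted P below 0.476.

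Nkg7 was at 0.897, 0.675, 0.518, 0.495 and 0.836 CPM in B6 females and at 0.288, 0.239, 0.174, 0.796 and 0.332 CPM in B6 males. In C3 females it was at 0.330, 0.252, 0.486, 0.571 and 0.294 CPM, and in C3 males at 0.146, 0.218, 0.0843, 0.159 and 0.102 CPM. B6 male 4 alone among the B6 males reached the range of the females, and the C3 sexes did not overlap. The log2 fold change was 0.83 in B6 (SE 0.33, adjusted P = 0.061) and 1.26 in C3 (SE 0.43, adjusted P = 0.025). Without B6 male 4 the B6 value was 1.34 (adjusted P = 0.0033), and over the single livers left out it was between 0.59 and 1.34. In C3 the adjusted P passed 0.05 without C3 female 3 or 4 or C3 male 3 or 4, up to 0.078.

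Among the B cell genes, Cd79b had 1.71, 1.13, 1.87, 2.09 and 1.38 CPM in B6 females and 1.79, 0.716, 0.871, 1.36 and 0.362 CPM in B6 males. It had 0.825, 0.663, 0.949, 0.914 and 0.795 CPM in C3 females and 0.511, 0.327, 0.450, 0.318 and 0.273 CPM in C3 males. The B6 males covered a wide range that overlapped the females, and all C3 males were below all C3 females. Ms4a1 had 1.11, 0.370, 0.829, 0.632 and 0.461 CPM in B6 females, 0.703, 0.298, 0.324, 1.08 and 0.423 CPM in B6 males, 0.363, 0.549, 0.509, 0.229 and 0.441 CPM in C3 females and 0.0365, 0.109, 0.141, 0.114 and 0.204 CPM in C3 males. The lowest C3 male value of Ms4a1 came from 1 count, and no C3 male reached the lowest C3 female. Cd79a, the partner chain of Cd79b, had 0.641, 0.326, 0.622, 0.440 and 0.375 CPM in B6 females and 0.671, 0.0895, 0.0747, 0.694 and 0.151 CPM in B6 males. In B6 males it fell into high (1 and 4) and low livers, with 21 and 27 counts against 3, 3 and 5. C3 females had 0.462, 0.686, 0.417, 0.400 and 0.383 CPM of Cd79a, and C3 males 0.0365, 0.0545, 0.197, 0.0681 and 0.136 CPM, without overlap.

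In B6 none of the B cell genes had an adjusted P under 0.05 between the sexes, with log2 fold changes of 0.64 for Cd79b (SE 0.27, adjusted P = 0.073), 0.21 for Ms4a1 (SE 0.33, adjusted P = 0.65) and 0.50 for Cd79a (SE 0.45, adjusted P = 0.41). In C3 the values were 1.15 for Cd79b (SE 0.33, adjusted P = 0.011), 1.67 for Ms4a1 (SE 0.47, adjusted P = 0.0091) and 2.19 for Cd79a (SE 0.57, adjusted P = 0.0055). These C3 values pass an adjusted P of 0.05 but not the call. The B6 value of Cd79b had an unadjusted p of 0.029 from the edgeR fit, and its adjusted P was between 0.027 and 0.20 without single livers and between 0.018 and 0.18 under other settings.

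Ptprc, with 267 to 1230 counts per liver, was the most precisely measured of the 9. B6 females had 25.1, 26.8, 23.8, 23.3 and 30.6 CPM and B6 males 15.3, 13.8, 16.5, 21.8 and 14.0 CPM. C3 females had 12.7, 13.5, 24.1, 16.2 and 14.5 CPM and C3 males 9.75, 7.83, 7.90, 9.49 and 9.92 CPM. The sexes did not overlap in either strain, and the highest livers among B6 males (number 4) and C3 females (number 3) stood above the rest of their groups. The log2 fold change was 0.61 in B6 (SE 0.14, adjusted P = 0.0023), 1.53-fold higher in females, and 0.74 in C3 (SE 0.15, adjusted P = 0.00083), 1.67-fold higher. Within pools the difference in mean log2 CPM was 0.86, 0.60 and 0.37 in B6 and 0.93, 0.29 and 0.81 in C3. The C3 call was close to the threshold and was lost without C3 female 3, 4 or 5 or any 1 C3 male, with adjusted P up to 0.0044 and a log2 fold change of at least 0.61.

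By count, 1 of the 7 genes tested was called in B6 (Cd4, lower in females), where 6.34% of all 13704 genes tested were called. In C3, 2 were called (Ptprc higher and Cd4 lower in females), where 6.90% of all genes were. At an adjusted P under 0.05 without a fold threshold, 1 gene was higher and 1 lower in B6 females (34.6% of all genes in either direction), and 6 were higher (20.1% of all genes) and 1 lower in C3 females (40.0% in either direction). All 7 had groups that did not overlap in C3, as had 13.4% of all genes tested, and 2 had such groups in B6, as had 11.4%. These counts are descriptions. The filter asked for about 10 counts in 5 livers, and in C3 males Cd3e, Cd79a, Ms4a1 and Nkg7 had at most 4, 7, 6 and 8 counts, so these genes were tested only because other groups had more.

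**Figure D2:**
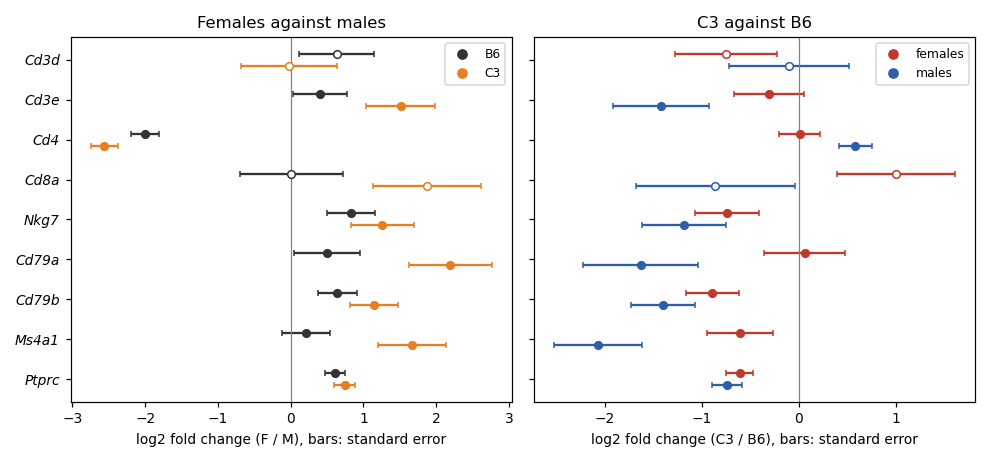
Log2 fold changes (x axis) of the 9 genes (y axis) for females against males in each strain (left) and for C3 against B6 in each sex (right); bars are standard errors, and open points are the 2 genes under the filter on low counts, fitted here without it. Cd4 lies at -2.00 and -2.56 in the sex comparisons, and the 6 other genes that passed the filter lie above 0 in both strains.

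The strains were compared within each sex. Reads of both strains were aligned to mm9, which represents B6, so that a lower level in C3 and C3 reads lost in mapping cannot be told apart. Between C3 and B6 females, 0 of the 7 genes tested were called by edgeR, where 9.40% of all genes were. In this comparison 3 had an unadjusted P under 0.05 (41.9% of all genes), 2 an adjusted P under 0.05 (32.9%), and DESeq2 called 1. Ptprc was lower in C3 females, with a log2 fold change of -0.61 (SE 0.14, adjusted P = 0.0021). C3 female 3, at 24.1 CPM, lay within the range of B6 females, and without it the log2 fold change of Ptprc was -0.76 (adjusted P = 0.00014), past the call. Cd79b was lower in C3 females as well (log2 fold change -0.89, SE 0.27, adjusted P = 0.017; up to 0.058 without B6 female 4 or C3 female 1), with no overlap between 1.13 CPM, the lowest B6 female, and 0.949 CPM, the highest C3 female; groups without overlap were seen for 13.1% of all genes. For Cd4 the difference was 0.01 (SE 0.21, adjusted P = 0.99), and for Cd79a 0.06 (SE 0.42, adjusted P = 0.93). Cd3e, Nkg7 and Ms4a1 gave -0.31, -0.74 and -0.61, with adjusted P between 0.092 and 0.55. The mean of Cd8a was 0.373 CPM in C3 and 0.192 CPM in B6 females (exact permutation p = 0.532) and rested on C3 female 4, which had 39 counts; without that liver the difference in mean CPM was -0.00423.

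In males 1 gene, Ptprc, was called, where 9.64% of all genes were. It was 1.67-fold lower in C3, with a log2 fold change of -0.74 (SE 0.15, adjusted P = 0.00066) and no overlap between the strains. The call was lost without B6 male 1, 3, 4 or 5 or C3 male 2, 3 or 4, with adjusted P up to 0.0036. Ms4a1 was lower in C3 males by the widest margin of the 7 (log2 fold change -2.07, SE 0.45, adjusted P = 0.0015), again without overlap, followed by Cd79a (-1.63, SE 0.59, adjusted P = 0.041), Cd3e (-1.42, SE 0.49, adjusted P = 0.031), Cd79b (-1.40, SE 0.33, adjusted P = 0.0026) and Nkg7 (-1.18, SE 0.43, adjusted P = 0.042). DESeq2 called 3 genes, Ptprc, Ms4a1 and Cd79b. Cd4 pointed the other way and was 1.49-fold higher in C3 males (log2 fold change 0.58, SE 0.17, adjusted P = 0.012), although C3 males 1 and 4, at 3.76 and 3.38 CPM, lay within the range of B6 males. At an adjusted P under 0.05, 1 gene was higher and 6 were lower in C3 males, against 17.5% of all genes that were lower and 34.5% in either direction. This count too is a description, since Cd3e, Cd79a, Ms4a1 and Nkg7 entered the test only through groups other than C3 males. Without single livers the adjusted P rose to 0.087 for Cd3e, 0.17 for Cd79a, 0.17 for Nkg7 and 0.069 for Cd4, past 0.05. For Cd3e this was without B6 male 4 or 5 or C3 male 3 or 4, for Cd79a without B6 male 1 or 4 or any C3 male but 3, for Nkg7 without B6 male 1, 4 or 5 or any C3 male but 2, and for Cd4 without B6 male 1. Groups without overlap were those of Ptprc, Ms4a1 and Cd3e, as for 15.5% of all genes. Within pools 1, 2 and 3, the strain difference in mean log2 CPM of Ptprc was -0.70, -0.87 and -0.46 in females and -0.76, -0.57 and -0.89 in males.

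Averaged over both strains, 6 of the genes tested were higher in females at an adjusted P under 0.05, Cd4 was lower, and 26.5% of all genes were higher and 53.1% passed in either direction. This count is again a description. For Cd3e, Cd79a and Nkg7, fewer than 5 male livers reached the level that the filter asked for, so they were not tested through males alone. The log2 fold changes were 1.35 for Cd79a (SE 0.36, adjusted P = 0.0047), 1.04 for Nkg7 (SE 0.27, adjusted P = 0.0035), 0.95 for Cd3e (SE 0.30, adjusted P = 0.014), 0.94 for Ms4a1 (SE 0.29, adjusted P = 0.011), 0.90 for Cd79b (SE 0.21, adjusted P = 0.002) and 0.68 for Ptprc (SE 0.10, adjusted P = 2.6e-05). Cd4 gave -2.28 (SE 0.13, adjusted P = 1.6e-10). Ptprc and Cd4 were called, where 9.62% of all genes were. Without B6 male 4 the calls of Cd79a (adjusted P = 0.00085) and Nkg7 (adjusted P = 0.00018) were added, and without B6 male 1 that of Cd79b (adjusted P = 0.00088). Averaged over both sexes, 3 genes were called as lower in C3, where 7.31% of all genes were called as lower and 12.6% in either direction: Ptprc (log2 fold change -0.68, SE 0.10, adjusted P = 2e-05), Cd79b (-1.15, SE 0.21, adjusted P = 0.00022) and Ms4a1 (-1.34, SE 0.28, adjusted P = 0.00076). The call of Ms4a1 rested on nearly the full set. It held when B6 female 2, B6 male 2 or 3, C3 female 5 or C3 male 5 was left out, whereas leaving out any other single liver took its adjusted P past 0.001, up to 0.003. Nkg7 (-0.96, adjusted P = 0.0073) and Cd3e (-0.87, adjusted P = 0.026; up to 0.06 without B6 male 4 or 5 or C3 male 3 or 4) were lower in C3 at an adjusted P under 0.05, which 22.4% of all genes passed as lower and 46.3% in either direction. The counts between strains are descriptions too, since for Cd3e, Ms4a1 and Nkg7 fewer than 5 C3 livers reached the filter level.

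Whether the sex difference itself differed between the strains was tested as an interaction (C3 minus B6). None of the 7 genes was called by edgeR or by DESeq2, where 0.401% of all genes were called by edgeR, and none had an adjusted P under 0.05 (2.96% of all genes). Ms4a1 (1.45 on the log2 scale, SE 0.58, adjusted P = 0.21) and Cd79a (1.69, SE 0.73, adjusted P = 0.26) were the 2 genes with an unadjusted P under 0.05 (16.1% of all genes). For Cd4 the interaction was -0.57 (SE 0.27, adjusted P = 0.31) and for Ptprc 0.13 (SE 0.20, adjusted P = 0.82). The larger sex differences of the B cell genes in C3 than in B6 were therefore not shown to differ between the strains.

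Set against Ptprc in the same liver, Cd4 was the gene whose share varied most between groups. The median TPM of Cd4 as a percentage of that of Ptprc was 6.27% for B6 females (range 3.27 to 8.76%) and 10.7% for C3 females (4.23 to 13.3%). It was 30.4% for B6 males (21.1 to 60.2%) and 93.7% for C3 males (65.3 to 156%). In C3 males the levels of both genes per length overlapped, at 2.23 to 4.46 TPM for Cd4 and 2.85 to 3.60 TPM for Ptprc. The male groups overlapped neither each other nor the female groups in this share. Cd79b had medians of 31.3 and 24.3% of Ptprc in females and males of B6 and 25.2 and 19.2% in those of C3, with overlapping ranges, and Cd3e had 4.49, 4.12, 5.36 and 2.83%. Nkg7 was between 7.18 and 25.4% of Ptprc over all livers. For Ms4a1, C3 males had 1.03 to 5.68% and the other groups 3.81 to 13.6%.

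Livers of 1 group also differed among themselves, and the genes were compared in their deviations from the group and pool means of log2 CPM. Of 21 pairs of the 7 genes, 2 had an adjusted P under 0.05 in permutations of the livers within groups. Cd79a and Ms4a1, both of B cells, varied together over the 20 livers with Pearson's r = 0.82 (permutation p = 4e-05, adjusted P = 0.00042) and Spearman's rho = 0.85 (p = 5e-05). Cd3e and Nkg7, of T cells and cytotoxic cells, had r = 0.78 (permutation p = 4e-05, adjusted P = 0.00042) and rho = 0.86 (p = 2e-05). Leaving out the 2 livers farthest from the median of the first gene gave r = 0.78 for Cd79a and Ms4a1 and r = 0.86 for Cd3e and Nkg7. Between the 2 pairs, r was at most 0.29, for Cd79a and Nkg7 (permutation p = 0.40), and this value was -0.27 without the 2 livers farthest in Nkg7. B6 male 4 was high in all 4 genes of the 2 pairs, with deviations of 1.29, 0.826, 1.04 and 0.456 for Cd79a, Ms4a1, Nkg7 and Cd3e. Cd4 did not follow Cd3e (r = 0.20, permutation p = 0.45). It had negative values with Ptprc (r = -0.27, permutation p = 0.34) and Cd79b (r = -0.44, permutation p = 0.052), neither past the adjustment. Cd79b followed its partner chain Cd79a less closely than Ms4a1 did (r = 0.47, permutation p = 0.16, adjusted P = 0.62), and the difference between these r values was not tested. The 2 pairs were those with an adjusted P under 0.05 also with all 9 genes (36 pairs) and without Cd4 (15 pairs), sets chosen after the data were seen.

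**Figure D3:**
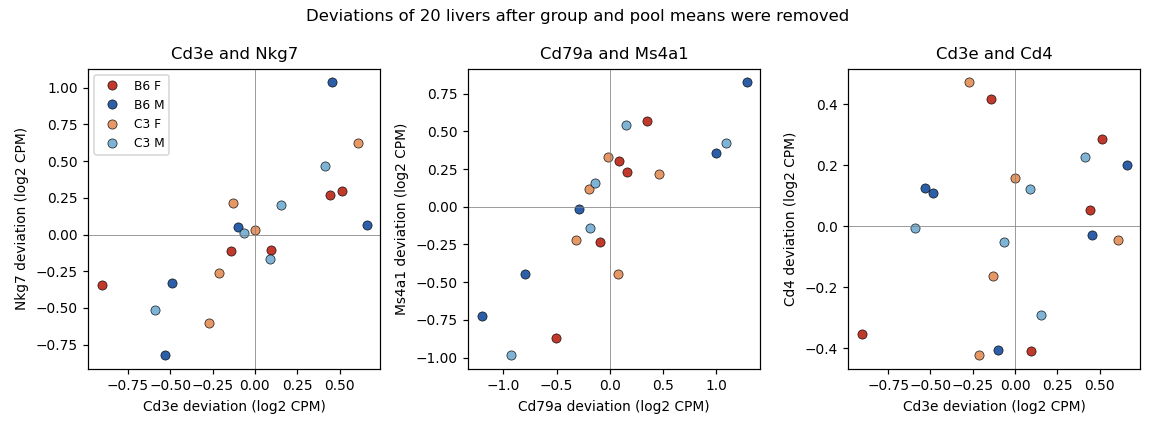
Deviations of log2 CPM from the group and pool means for Cd3e and Nkg7, Cd79a and Ms4a1, and Cd3e and Cd4 (x and y axes, log2 CPM); each point is 1 of 20 livers, coloured by group. The points of the first and second plots rise together (r = 0.78 and 0.82), and those of the third do not (r = 0.20).

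Among all 13704 genes tested, the 3 whose deviations were most like those of Ptprc over the 20 livers were Adgre5 (r = 0.90), Arhgef2 (0.90) and Lilrb4a (0.89). For Cd4 they were Ugt2b35 (0.79), Zfp287 (0.77) and Emc9 (0.77), and for Cd79b Dram1 (0.92), Fam219b (0.88) and Zfp867 (0.85). Ms4a1 was the third for Cd79a, after Vldlr (0.85) and Hpgd (0.83), whereas Ms4a1 itself was nearest to Tbc1d12 (0.83), Gimap1 (0.83) and Zfp579 (0.82). Cd3e was the second for Nkg7, between Kif21b (0.80) and Dusp1 (0.78), and Cd3e was nearest to Scamp2, BC052040 and Sntg2 (0.80 each). These are the highest of many correlations over livers that share pools and depth, given without a test.

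Other genes of the same cells were taken from marker lists, and their counts stand against all genes tested, of which 26.5% were higher in females and 22.4% lower in C3 at an adjusted P under 0.05, and 53.1% and 46.3% passed in either direction. Calls were made for 9.62% of all genes between the sexes and 12.6% between the strains. Some list genes, too, passed the filter on low counts only through groups other than C3 males. Bcl11b, Fcer2a, Fcrla and Gzma, for example, had means of 0.0631, 0.0454, 0.0477 and 0.105 CPM in C3 males. The lists were also chosen with earlier results of these data known, so their counts, medians and calls are descriptions. Of 18 other T cell genes, 13 were tested, and 10 were higher in females and none lower at an adjusted P under 0.05 in the average over strains, with a median log2 fold change of 0.81, against a median of 0.010 over all genes. The 3 genes called were Tcf7 (0.87, adjusted P = 1.5e-06), Zap70 (0.62, adjusted P = 2.4e-05) and Bcl11b (1.43, adjusted P = 0.00024), the transcription factors TCF1 and BCL11B of developing T cells and the kinase that binds the CD3 chains. In C3 against B6, 8 of the 13 were lower and none higher, with a median of -0.68. Themis, a signalling protein of developing T cells, stood apart from the list with 4.42 ± 0.365 CPM in B6 males and lower means of 0.620 ± 0.293 in B6 females, 0.283 ± 0.121 in females of C3 and 0.0536 ± 0.0612 in males of C3. Its interaction of sex and strain was 5.13 on the log2 scale (adjusted P = 0.00017), the only one called in the T cell list, and 2 of the 20 livers had no count of it. Cd3g, the third CD3 chain, had 1.01 ± 0.317 and 0.485 ± 0.256 CPM in females and males of B6 and 0.406 ± 0.154 and 0.208 ± 0.0422 CPM in those of C3, the order of Ptprc and not that of Cd4.

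Of 16 other B cell genes, 12 were tested, and 10 were higher in females, none lower, with a median log2 fold change of 0.96. The genes called were Blnk (1.25, adjusted P = 1.8e-05), an adaptor of B cell receptor signalling, the inhibitory receptor Cd22 (0.98, adjusted P = 5e-05), Fcrla (1.49, adjusted P = 0.00037) and the IgE receptor Fcer2a (1.77, adjusted P = 0.00047). In C3, 7 were lower and 1 higher, with a median of -0.68. The gene higher in C3 was Blnk (1.58, adjusted P = 7.2e-07), and Fcrla (-1.72, adjusted P = 7.4e-05), Cd72 (-0.65, adjusted P = 0.00014) and Cd22 (-0.77, adjusted P = 0.00047) were called as lower. Of 15 NK and cytotoxic genes, 9 were tested, 7 were higher in females, none lower, and the median was 1.19. Granzymes A and B (Gzma 1.51, adjusted P = 0.00013; Gzmb 1.48, adjusted P = 0.00043) and Il2rb (0.85, adjusted P = 0.00046), a receptor chain for IL-2 and IL-15, were called. In C3, 4 of the 9 were lower and none higher, with a median of -0.56, and Klrb1c, which encodes the NK1.1 antigen of B6 mice, was lowest at -3.66 (adjusted P = 1.8e-06), with no count in 4 livers. Whether C3 reads of Klrb1c were lost in mapping to the B6 genome was not tested.

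The remaining lymphoid lists were less uniform. Of 10 genes of NKT, regulatory T and innate lymphoid cells, 6 were tested. Of these, 3 were higher and 1 lower in females, with a median of 0.55, where 26.5% of all genes were higher and 53.1% passed in either direction. In C3, 1 was higher and 1 lower, where 46.3% of all genes passed in either direction. The gene lower in C3 was Cxcr6, a chemokine receptor of liver NKT cells (-1.23, adjusted P = 0.00044). Of 4 plasma cell genes 2 were tested, and 1 was lower in females and 1 higher in C3.

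Summed over each list, the 18 T cell genes reached 18.0 to 28.3 and 14.0 to 23.9 CPM in females and males of B6 and 13.4 to 23.2 and 8.10 to 9.85 CPM in those of C3. The 16 B cell genes reached 13.4 to 19.9, 9.85 to 14.6, 13.3 to 18.0 and 6.80 to 8.62 CPM in the same order, and the 15 NK and cytotoxic genes 7.56 to 12.3, 2.87 to 9.02, 4.49 to 9.33 and 2.39 to 3.47 CPM. C3 males were the lowest group for T and B cell sums, with no overlap with any other group. With Themis left out, a sum added after the data were seen, B6 males reached 10.2 to 19.4 CPM and C3 males 8.10 to 9.76 CPM, so that the gap to the nearest B6 male was narrow. Zap70 alone had means of 12.8 and 8.18 CPM in females and males of B6 and 9.45 and 5.00 CPM in those of C3, about as much as the other T cell genes together. For the NK sum C3 males overlapped B6 males. The NKT, regulatory T and innate lymphoid list had median sums of 73.2 and 101 CPM in females and males of B6. In those of C3 the medians were 93.3 and 101 CPM. The plasma cell list had medians of 3.07, 3.10, 2.40 and 5.79 CPM in the same order. C3 males were thus not the lowest group in either of these lists.

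**Figure D4:**
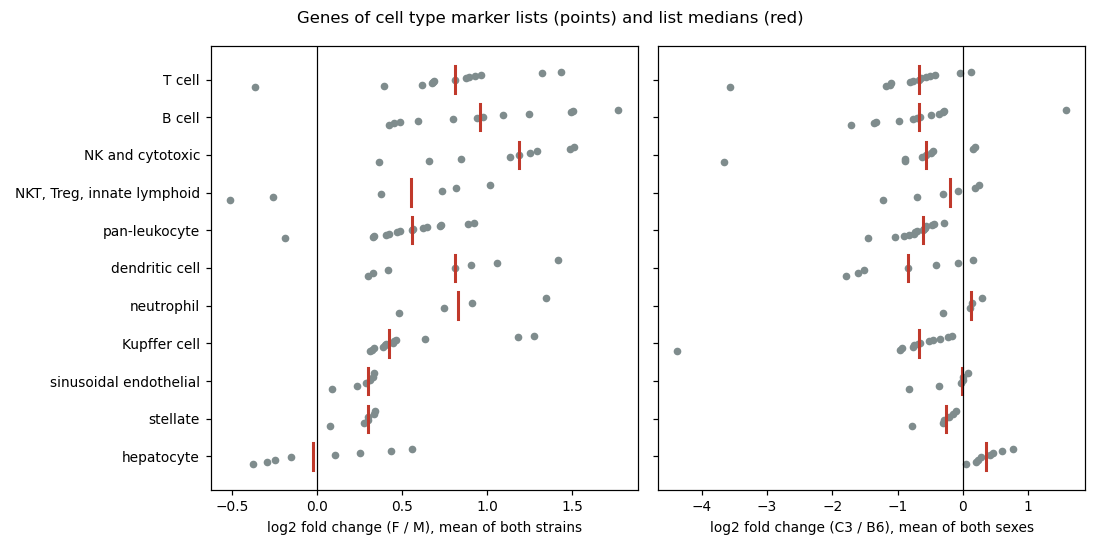
Log2 fold changes (x axis) of the tested genes of each marker list (y axis) for females against males, averaged over strains (left), and for C3 against B6, averaged over sexes (right); each point is 1 gene and red bars are list medians. The T cell, B cell and NK lists have medians of 0.81, 0.96 and 1.19 on the left and -0.68, -0.68 and -0.56 on the right, and the Kupffer cell list 0.42 and -0.68.

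Markers of other blood and liver cells moved with the same groups, and their part in the differences above was not tested. All 12 Kupffer cell genes were higher in females at an adjusted P under 0.05 (median 0.42) and 10 were lower in C3 (median -0.68). Their summed level was 620 to 807 and 380 to 584 CPM in females and males of B6, 387 to 582 and 258 to 389 CPM in those of C3, and none of them was at 0 in any liver. The medians of these sums have the group order of Ptprc, which macrophages carry too. Of 15 other pan-leukocyte genes, 14 were higher and 1 lower in females (median 0.56), and 14 were lower in C3 (median -0.61), with sums of 251 to 295, 208 to 243, 144 to 181 and 143 to 167 CPM. Lcp1, the gene lower in females, made up a large part of these sums, with means of 138, 137, 81.1 and 98.2 CPM in the same order. Of 7 dendritic cell genes, 6 were higher in females (median 0.81) and 5 lower in C3 (median -0.84), with sums of 9.98 to 14.1, 7.52 to 12.9, 7.74 to 12.1 and 5.01 to 7.77 CPM. Of the neutrophil genes 4 of 10 were tested, and all 4 were higher in females (median 0.83) and 0 passed between the strains in the average over sexes, although 1 was higher in C3 females than in B6 females; their sums were 4.55 to 6.34, 2.87 to 4.06, 3.76 to 8.20 and 2.70 to 3.16 CPM, and Camp and Mpo had no count in 17 livers each. The direction of Cd4 was seen in none of these sums.

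Lists of hepatocytes and of other cells followed. Alb, the albumin gene of hepatocytes, was abundant in every group. The 8 hepatocyte genes had a median log2 fold change of -0.03 between the sexes (3 higher and 4 lower in females) and 0.36 between the strains (7 higher in C3), with sums of 1.44e+05 to 1.66e+05 and 1.13e+05 to 1.29e+05 CPM in females and males of B6 and 1.88e+05 to 2.08e+05 and 1.51e+05 to 1.69e+05 CPM in those of C3. Sinusoidal endothelial and stellate genes had medians of 0.30 each between the sexes (5 and 4 of 6 higher in females) and of -0.01 and -0.25 between the strains (2 and 4 of 6 lower in C3), with sums in the 4 groups of 457 to 522, 344 to 393, 403 to 464 and 341 to 395 CPM for endothelial and 502 to 587, 394 to 432, 396 to 422 and 312 to 360 CPM for stellate genes. The cholangiocyte list (4 of 5 tested) had 1 gene higher and 1 lower in females and 1 higher in C3, and the platelet list (3 of 4 tested) had 1 higher in females, and 1 higher and 2 lower in C3, with medians of 0.10 and -1.19. In the erythroid list, 2 of 8 genes were tested, with medians of -1.68 between the sexes and -0.51 between the strains, and Alas2, which encodes a heme synthesis enzyme, shared the direction of Cd4 with a log2 fold change of -3.02 (adjusted P = 2.8e-14). Hbb-b1 and Hbb-b2 had no count in any liver, so that the blood content of the livers was not measured by them.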

How the data were processed

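Strand-specific libraries of ribosomal RNA-depleted total liver RNA were trimmed with Cutadapt (1.9.1), aligned with STAR (2.5.1b) to mm9, which represents the B6 strain, and counted on RefSeq genes with featureCounts (Subread 1.5.0-p1, read pairs that map or overlap several times left out), per the labels and the study's methods. The authors deposited these raw counts, and TPM values computed from them with a gene length whose definition is not given in the sources used here. The headers of the symbol and identifier columns are exchanged and were read by content.

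CPM were scaled to the total of each liver only. Tests on counts used R 4.3.3 and edgeR 4.0.16 (filterByExpr with a minimum count of 10 on the 4 groups, TMM, and a quasi-likelihood fit with terms for group and pool to the 20 livers), with Benjamini-Hochberg adjustment over 13704 genes and the thresholds of the study. Correlations used log2 CPM (prior count 2) and 100000 permutations within groups. Alternatives included DESeq2 1.42.0 and limma 3.58.1 on TPM. The scripts were tested on simulated data. The genes named are the 9 chosen, up to 4 called genes of each list and comparison by P, the 3 genes most like each of the 9, Alb, and Cd3g and the genes at 0, which were chosen after their values were seen. The 9 genes and all lists were chosen with earlier results of these data known. Labels name the livers as biological replicates, and pairs of livers of a group differed by more than sampling noise (chi-square per degree of freedom of 19.8 to 191 over 40 pairs).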

Additional observations from a re-analysis of the deposited data

Results flagged for a closer look

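Dixon's criterion was applied to the CPM of each of the 9 genes in each group of 5 livers, 36 groups in all, of which chance flags about 1 in 20. In 4 of them 1 liver was flagged as above the others. C3 female 4 had 1.11 CPM of Cd8a (39 counts) and 0.343 CPM of Cd3e (12 counts). For Cd3e the next highest liver, C3 female 3, had 9 counts, a small gap at such low counts. C3 female 2 had 0.686 CPM of Cd79a (30 counts), and B6 male 4 had 0.796 CPM of Nkg7 (31 counts). B6 male 4 was also the highest B6 male for Cd3d, Cd79a, Ms4a1 and Ptprc, at 0.437, 0.694, 1.08 and 21.8 CPM.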

How the results depend on the processing

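The numbers of genes called moved with the test and the threshold. In B6 females against males the count of 1 became 2 with DESeq2, with limma on log2(TPM + 1) or log2(TPM + 0.1) and at an adjusted P under 0.05 with no fold threshold. In C3 the count of 2 became 1 without the pool term, with the replicate block and with only the groups compared, and 7 at the wider threshold; without single livers it was 1 to 2. Between strains, the 0 in females became 1 with DESeq2 and with limma on log2(TPM + 1), 2 at the wider threshold, and 0 to 1 without single livers. The 1 in males became 3 with DESeq2, 7 at the wider threshold and 0 to 1 without single livers. With only the groups compared, the filter left out Cd3e, Ms4a1 and Nkg7 in C3, Cd3e in females and Cd3e, Cd79a and Nkg7 in males. The average over strains gave 4 and 5 in place of 2 with limma on log2(TPM + 1) and log2(TPM + 0.1), 7 at the wider threshold and 2 to 4 without single livers, and the average over sexes 5 in place of 3 at the wider threshold. The cause of these shifts was not tested. Ms4a1 lost its strain call without the pool term (adjusted P = 0.0011), with the replicate block (0.0025) and with limma on log2(TPM + 1) (0.0029).

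Differences near 0 changed sign. For Cd4 in C3 against B6 females, DESeq2 size factors and only the groups compared gave -0.00, the upper quartile and no pool term -0.03, and limma -0.04 and -0.06 with pseudocounts of 1 and 0.1; without B6 female 2 or 4 it was -0.10, without C3 female 1 -0.05 and without C3 female 2 -0.15, in a range up to 0.15. For Cd79a limma gave -0.01 with either pseudocount, and leaving out B6 or C3 female 2 gave -0.11 and -0.10, in a range up to 0.20. The interaction of Nkg7 was -0.05 with limma on log2(TPM + 1) and -0.03 without B6 male 4 (up to 0.65 without other livers), and that of Ptprc -0.00 without C3 female 3 (up to 0.23). Ms4a1 in B6 females against males was -0.01 without B6 female 1 (up to 0.56), and the difference in mean CPM of Cd8a was -0.029 and -0.0166 without B6 female 4 or B6 male 5 (up to 0.0671), and -0.00423 between strains without C3 female 4 (up to 0.258). Of the 462 log2 fold changes compared under other settings, 412 kept direction and side of the threshold, and of 700 without 1 liver, 655 did. The 462 include unchanged log2 fold changes that were only read again at the wider threshold.

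Same-numbered livers had correlations of deviations from -0.46 to 0.63, with means of -0.19 and -0.24 between the sexes in B6 and C3 and 0.22 and 0.18 between the strains in females and males. Of 5 livers each, 1, 0, 1 and 3 were closest to their own number in these comparisons. Not every pair was above 0.1, so the replicate block was not taken as pairing. Besides the counts given, it added Cd79b to the calls averaged over strains (adjusted P = 0.00072). Counts under 10 in most livers for Cd3d, Cd3e and Cd8a limit what can be seen of T cells at this depth.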
